A study of Mus musculus with 6 samples.

Results

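The transient receptor potential (TRP) channel genes examined here were Trpv1, Trpv2, Trpv4, Trpa1, Trpm2, Trpm3, Trpm7, Trpm8 and Trpc1. These 9 genes were taken by symbol from 54309 genes in the deposited table, each matched a single Ensembl gene identifier, and the values of its transcripts were summed. Values are in TPM, the share of a library's transcripts that comes from a gene, corrected for transcript length and scaled to a fixed total of 1000000. The 6 libraries come from L4 to L6 dorsal root ganglia (DRG) of male C57bl/6 mice aged 8 to 10 weeks, dissociated and enriched for neurons on an albumin gradient. All mice had an AAV injected into the sciatic nerve on each side, then a dorsal column axotomy 4 weeks later, and tissue was taken 24 hours after that injury. The vector was AAV-GFP in 3 libraries and AAV-Leptin-GFP in 3, so both groups carry GFP and the injury, and no uninjured or uninjected library was analysed here. The words "with leptin" mean the AAV-Leptin-GFP libraries, and 3 values in a row stand for replicates 1, 2 and 3. The vector's promoter and the number of animals in each library are not given in the sources used here. P-values therefore measure the spread between libraries, part of which may be technical.

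TRP channels are tetrameric cation channels of the plasma membrane, and several of them turn a physical or chemical stimulus into depolarisation of the sensory nerve ending. In DRG neurons Trpv1 responds to noxious heat, acid and capsaicin, Trpa1 to irritant electrophiles such as mustard oil, Trpm8 to cold and menthol, and Trpm3 to heat and neurosteroids. Injury and inflammatory signals, including nerve growth factor, bradykinin and prostaglandins, sensitise these channels through kinases and phospholipase C.

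Lep, the gene that the vector delivers, stood at 0.751, 0.547 and 3.56 TPM with leptin, and no control library had a value above 0. The 10 sensory neuron markers were all present. They summed to 14137 to 14281 TPM with AAV-GFP and 13260 to 13552 TPM with leptin, all leptin sums being lower. The keratinocyte markers Krt5 and Krt14 summed to at most 0.364 TPM. Retained-intron transcripts, which still hold an intron, differed with the groups. They took 2.1 to 2.5% of all TPM with AAV-GFP and 3.24 to 3.75% with leptin. Red cell genes summed to 170 to 256 TPM with AAV-GFP and 239 to 1724 TPM with leptin, and these ranges overlapped. AAV-Leptin-GFP replicate 3 had both the highest of these sums and the highest Lep value, so those features cannot be told apart there. Read depth is unknown, since TPM keeps no record of it.

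Over all 6 libraries Trpv2 was the most abundant of the 9 genes at a mean of 61.6 TPM, followed by Trpv1 at 41.2 TPM. Trpc1 averaged 27.8, Trpa1 21.1, Trpm7 19.1, Trpm2 17.3 and Trpm3 16.8 TPM. Trpm8 averaged 9.74 TPM and Trpv4 0.657 TPM. The ranges of Trpv2 and Trpv1 did not overlap, nor did those of Trpm3 and Trpm8 or of Trpm8 and Trpv4. Between Trpv1 and Trpm3 every pair of neighbours in this order overlapped, and Trpm2 exceeded Trpm3 in only 3 of 6 libraries, so that stretch of the order is not resolved. The 9 genes summed to 238, 213 and 212 TPM with AAV-GFP and to 213, 221 and 194 TPM with leptin, and these sums overlapped.

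**Figure D1:**
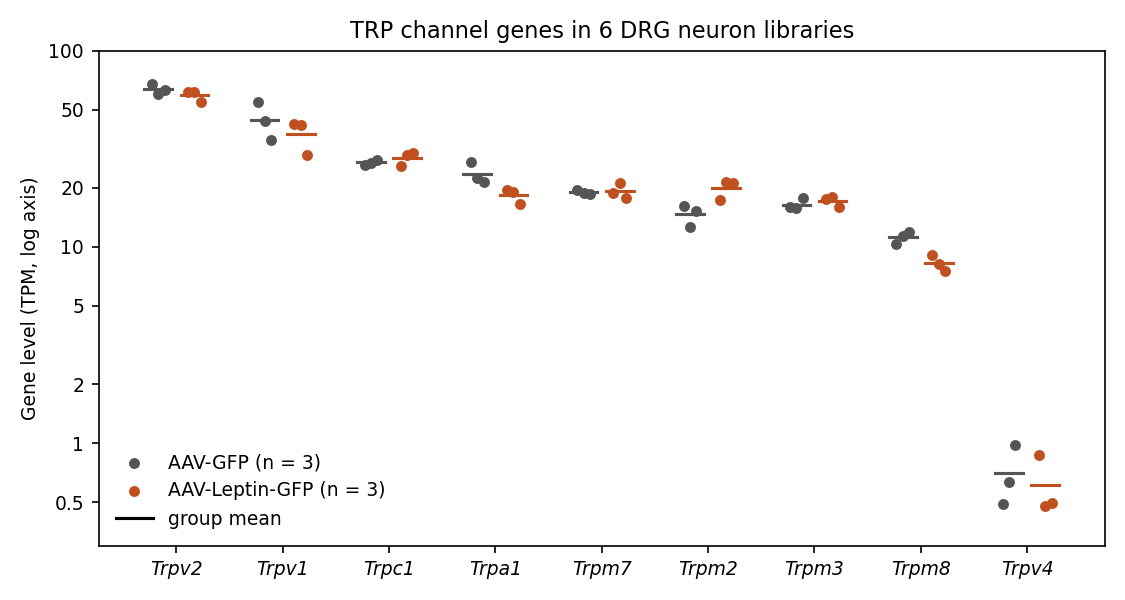
Level of each TRP channel gene in TPM on a log axis, 1 point per library and a bar at each group mean, genes ordered by their mean over the 6 libraries. The AAV-Leptin-GFP points of Trpm8 and Trpa1 lie below all AAV-GFP points, those of Trpm2 lie above them, and the other 6 genes overlap.

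With leptin, Trpm8 and Trpa1 had lower values in every library and Trpm2 had higher values, by factors of 0.736, 0.778 and 1.37 between the group means. None of the 8 genes that reached a mean of 1 TPM passed the test over all 15108 such genes (limma on log2(TPM + 1), Benjamini-Hochberg adjusted p under 0.05), where 1.61% of all tested genes were called, 1.54% (233 genes) higher and 0.0662% (10 genes) lower. The count of called genes rested on single libraries, with 409 higher and 11 lower without AAV-GFP replicate 1 but 3 to 18 higher and at most 1 lower without each of the other 5. At an unadjusted limma p under 0.05 there were 3 of 8, namely these 3 genes, against 19.5% of all tested genes (11.3% higher and 8.19% lower). The same 3 were the only ones whose groups did not overlap, 1 higher and 2 lower. Over all tested genes 13.3% lay wholly higher and 11.9% wholly lower, 25.2% together. The median log2 fold change of the 8 genes was -0.04, against -0.00016 over all tested genes, with 4 above and 4 below 0, where 50.1% of all tested genes lay below 0.

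**Figure D2:**
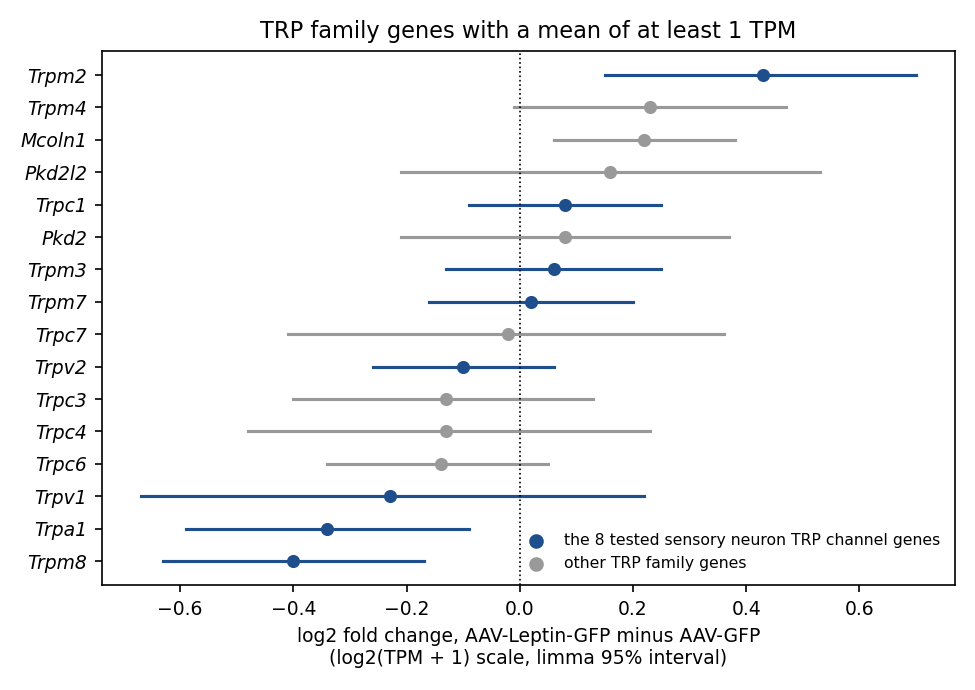
Log2 fold change on the log2(TPM + 1) scale with its 95% limma interval for each TRP family gene with a mean of at least 1 TPM, AAV-Leptin-GFP minus AAV-GFP. The intervals of Trpm2, Mcoln1, Trpa1 and Trpm8 do not include 0, though none of these genes passed after adjustment over all genes, and Trpv1 has the widest interval of the 8 genes in blue.

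Promoter sequences of Trpm8, Trpv1 and Trpm2 are shown because Trpm8 and Trpm2 had the lowest and highest fold change and Trpv1 is the best-known member of the family. Trpa1 had no entry in the RefSeq table (GRCm38.p6), in which 8 of 9 genes were found. Each runs 5′ to 3′ on the gene's own strand, starts 250 bases before the RefSeq start site and ends before that site, and capitals mark the motifs found.
Trpm8 (chr1:88306485-88306663, plus strand): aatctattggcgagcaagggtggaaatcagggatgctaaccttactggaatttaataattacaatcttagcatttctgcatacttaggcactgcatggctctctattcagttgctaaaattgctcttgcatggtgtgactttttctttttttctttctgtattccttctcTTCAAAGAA
Trpv1 (chr11:73233899-73234148, plus strand): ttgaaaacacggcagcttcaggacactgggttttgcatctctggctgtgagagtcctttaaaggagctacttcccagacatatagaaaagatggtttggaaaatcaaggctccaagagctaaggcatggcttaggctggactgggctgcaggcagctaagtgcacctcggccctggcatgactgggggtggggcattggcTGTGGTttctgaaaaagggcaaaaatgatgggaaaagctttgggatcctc
Trpm2 (chr10:77969873-77970122, minus strand): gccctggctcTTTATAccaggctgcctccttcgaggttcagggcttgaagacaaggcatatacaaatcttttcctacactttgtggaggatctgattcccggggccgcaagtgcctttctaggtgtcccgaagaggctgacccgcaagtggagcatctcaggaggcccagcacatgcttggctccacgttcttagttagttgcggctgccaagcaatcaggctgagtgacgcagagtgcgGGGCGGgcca
In GENCODE M21 the Trpm8 stretch is intronic to rarer Trpm8 transcripts that start further upstream, and it ends 72 bases before the RefSeq start site, just inside an exon of theirs. The Trpm2 stretch is intronic to a 352 nt processed transcript of Trpm2, and the Trpv1 stretch lies upstream of the gene. Motifs were searched on both strands in the 250 bases upstream of each start: TTCNNNGAA for STAT factors, TGANTCA for AP-1, TGTGGT for RUNX factors, GGGCGG for Sp1 and TATAAA. The STAT motif, the class of site that leptin's STAT3 can bind, was found 80 bases before the Trpm8 start and in no other of the 11 windows of these genes. It occurs in 7.01% of 32817 RefSeq windows of the same length. The AP-1 motif was in 0 of the 11 windows and in 6.75% of all. The RUNX motif was in 2 of the 11 windows (14% of all), 50 bases before the Trpv1 start and in 1 Trpm3 window. The Sp1 motif was in 3 of the 11 (32.7% of all), those of Trpc1, Trpv4 and Trpm2, and in Trpm2 it began 10 bases before the start. TATAAA was in 2 of the 11 (12.4% of all), 30 bases before the Trpm8 start, outside the printed stretch, and 240 bases before the Trpm2 start on the opposite strand. A match of letters is no evidence that a factor binds there.

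Trpm8, the receptor for cold and menthol (ENSMUSG00000036251, chromosome 1, 88277661 to 88389293 on GRCm38), stood at 10.3, 11.4 and 11.9 TPM with AAV-GFP and at 9.11, 8.15 and 7.52 TPM with leptin. All leptin libraries were below all control libraries. The means were 11.2 ± 0.836 and 8.26 ± 0.803 TPM (SD, n = 3). The log2 fold change was -0.40 (SE 0.10, 95% interval -0.63 to -0.17, limma adjusted p = 0.0906), the 725th smallest p of all tested genes. The difference did not rest on a single library, since leaving out each in turn gave -0.47 to -0.34 with an unadjusted limma p of at most 0.0207. Weighting each transcript by its length, an alternative chosen after seeing the data, brought the adjusted p to 0.0335 at nearly the same fold change of -0.41. Over 18 alternatives the adjusted p ranged from 0.0335 to 0.261, and this was the only one under the threshold. The 4146 nt protein-coding transcript carried 95.7% of the TPM, at 9.93, 11.3 and 11.7 TPM with AAV-GFP and 8.5, 7.98 and 6.53 TPM with leptin. The only other transcript above 0 is a 4112 nt protein-coding form, and no retained-intron transcript is listed for Trpm8.

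Trpa1, the irritant receptor (ENSMUSG00000032769, chromosome 1, 14872648 to 14918862), lies on the same chromosome as Trpm8 and showed 27.2, 22.4 and 21.4 TPM with AAV-GFP. The leptin values were 19.6, 19 and 16.6 TPM, all below the lowest control. The gap between the groups was narrow, from 19.6 to 21.4 TPM, while the control libraries themselves spread from 21.4 to 27.2 TPM. The log2 fold change was -0.34 (SE 0.11, 95% interval -0.59 to -0.09, limma adjusted p = 0.147). Leaving out AAV-GFP replicate 1 gave -0.24 (limma adjusted p = 0.248). Leaving out AAV-Leptin-GFP replicate 3, the library highest in both red cell genes and Lep, gave -0.27 (limma adjusted p = 0.297). The unadjusted limma p was then above 0.05 too. Over 18 alternatives the adjusted p ranged from 0.0793 to 0.297. The 4263 nt protein-coding transcript held 96.3% of Trpa1, and no other transcript class is listed for the gene.

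Trpv1, the capsaicin and heat receptor (ENSMUSG00000005952, chromosome 11, 73234292 to 73261242), was the most variable of the 8 tested genes within a group. It stood at 54.6, 44 and 35 TPM with AAV-GFP and at 42.2, 41.9 and 29.4 TPM with leptin. The groups overlapped, and the highest control library exceeded the lowest by 1.56-fold. The log2 fold change was -0.23 (SE 0.19, 95% interval -0.67 to 0.22, limma adjusted p = 0.559). On the ratio scale that interval runs from 0.63 to 1.16, which includes changes of the size seen for Trpa1 and Trpm8. The estimate moved with single libraries, being -0.07 when AAV-GFP replicate 1 was left out and -0.06 when AAV-Leptin-GFP replicate 3 was, but -0.38 without AAV-GFP replicate 3. Within a library Trpv1 exceeded Trpa1 by 2, 1.96 and 1.64-fold with AAV-GFP and by 2.15, 2.21 and 1.77-fold with leptin, so these ratios, which do not depend on library scaling, also overlapped.

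The profiles of these 3 thermal and chemical sensors were compared with 62 genes of fixed sensory neuron lists, by the mean absolute difference of log2(TPM + 1) centred on each gene's own mean over the 6 libraries. Near to Trpm8 was Calca, the precursor of the neuropeptide CGRP, at 0.060, where the median of the 62 genes was 0.192. Nearest to Trpa1 were Tac1, the substance P precursor, at 0.060, and Adcyap1, which encodes the peptide PACAP, at 0.073 (median 0.157). Tac1 ran at 554, 432 and 397 TPM with AAV-GFP and at 362, 346 and 293 TPM with leptin, the same order of libraries as Trpa1. Nearest to Trpv1 were the lysophosphatidic acid receptor gene Lpar3 at 0.074 and the somatostatin receptor gene Sstr2 at 0.086 (median 0.201). Lpar3 stood at 52.9, 45.6 and 35.1 TPM with AAV-GFP and at 41.5, 38.2 and 33.6 TPM with leptin. With 6 libraries and 62 candidates these are descriptions only.

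Genes of the neuron classes known to carry these channels were read from fixed lists. Of 14 tested peptidergic nociceptor genes, none passed the test over all genes, 13 lay below 0, 6 were lower at an unadjusted limma p under 0.05, and the median log2 fold change was -0.20. Over all tested genes 50.1% lay below 0 and 8.19% were lower at that unadjusted p. Calca (-0.36, limma adjusted p = 0.0603) and Calcb (-0.22, limma adjusted p = 0.116) had the smallest p. Calca was called under median-of-ratios scaling (limma adjusted p = 0.0426) and under length weighting (limma adjusted p = 0.0185). Among 16 nonpeptidergic nociceptor and itch genes none passed and 12 lay below 0 (median -0.10). The smallest p there belonged to the receptor gene Mrgprb4 at -0.32 and the complement regulator Cd55 at -0.16, though other members had larger changes than Cd55. Of the 15 tested large-diameter neuron genes 10 lay above 0 and 5 below, with a median of 0.04 and none at an unadjusted p under 0.05. The smallest p belonged to 2 of the 5 below 0, the mechanosensitive channel Piezo2 at -0.09 and the BDNF receptor Ntrk2 at -0.10. The summed level of the peptidergic list was 7952 to 8128 TPM with AAV-GFP and 6533 to 7225 TPM with leptin. Calca alone made most of that gap, with means of 4141 and 3235 TPM, while Nefh, a neurofilament gene also on the large-diameter list and named after its values were seen, added means of 2014 and 2135 TPM. The 10 general sensory neuron markers had a median of -0.07, with 9 below 0 and 1 above, none called. The part of either list in the values of Trpm8 and Trpa1 was not tested. In these bulk libraries fewer neurons of a type and less RNA per neuron cannot be told apart.

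Trpm2, a channel opened by ADP-ribose during oxidative stress (ENSMUSG00000009292, chromosome 10, 77907722 to 77970563), was the 1 gene with higher values in every leptin library. It stood at 16.1, 12.6 and 15.2 TPM with AAV-GFP and at 17.4, 21.5 and 21.2 TPM with leptin, so that the closest libraries of the 2 groups were 16.1 and 17.4 TPM. The log2 fold change was 0.43 (SE 0.12, 95% interval 0.15 to 0.70, limma adjusted p = 0.112). Its ratio to Trpm8 within a library was 1.57, 1.1 and 1.27 with AAV-GFP and 1.91, 2.64 and 2.82 with leptin. Trpm2 is also known from macrophages, whose 9 markers summed to 29.7 to 49 TPM with AAV-GFP and 33.5 to 35.5 TPM with leptin, overlapping. Of these markers 8 of 9 lay below 0, where 50.1% of all tested genes did, and none was called. Their part in the Trpm2 values was not tested.

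In TPM the difference in Trpm2 lay in the sum of its shorter transcripts. This split by length was made for Trpm2 alone and was not planned in advance, so its ratios are descriptions only. The 5980 nt transcript, classed as a processed transcript in GENCODE M21, was the leading form and gave 7.6, 6.12 and 7.08 TPM with AAV-GFP and 6.45, 7.31 and 6.78 TPM with leptin. The 7274 nt protein-coding transcript gave 1.95, 3.7 and 3.02 TPM with AAV-GFP and 2.59, 3.7 and 3.1 TPM with leptin. Neither long form separated the groups, and together they averaged 9.82 ± 0.275 and 9.98 ± 0.994 TPM (SD, n = 3), a ratio of 1.02. The 7 shorter transcripts above 0 summed to 6.57, 2.77 and 5.05 TPM with AAV-GFP and to 8.35, 10.5 and 11.3 TPM with leptin, a ratio of 2.09 between means of 4.8 and 10 TPM. Among them the retained-intron forms gave 2.06 ± 1.09 and 4.27 ± 0.453 TPM, and the 731 and 436 nt protein-coding forms gave 2.61 ± 0.969 and 5.78 ± 1.08 TPM. Neither of these short protein-coding forms separated the groups alone. The 731 nt form gave 2.68, 1.5 and 3.07 TPM with AAV-GFP and 2.38, 6.07 and 2.29 TPM with leptin. The 436 nt form gave 0.584, 0 and 0 TPM with AAV-GFP and 2.21, 0 and 4.39 TPM with leptin. Of the 7 shorter transcripts only the 2196 and 4508 nt retained-intron forms separated alone. How often single transcripts separate over all genes was not counted, so this cannot be weighed. TPM gives a short transcript a high value for few fragments, so the share of each form in the sum is not its share of the reads. Weighted by annotated length, the log2 fold change of Trpm2 was 0.18 (limma adjusted p = 0.192), with protein-coding transcripts only it was 0.60 (adjusted p = 0.0924), and without retained-intron transcripts 0.30 (adjusted p = 0.211). The size of the difference thus depended on how transcripts were summed, while its sign was the same in all 18 alternatives.

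**Figure D3:**
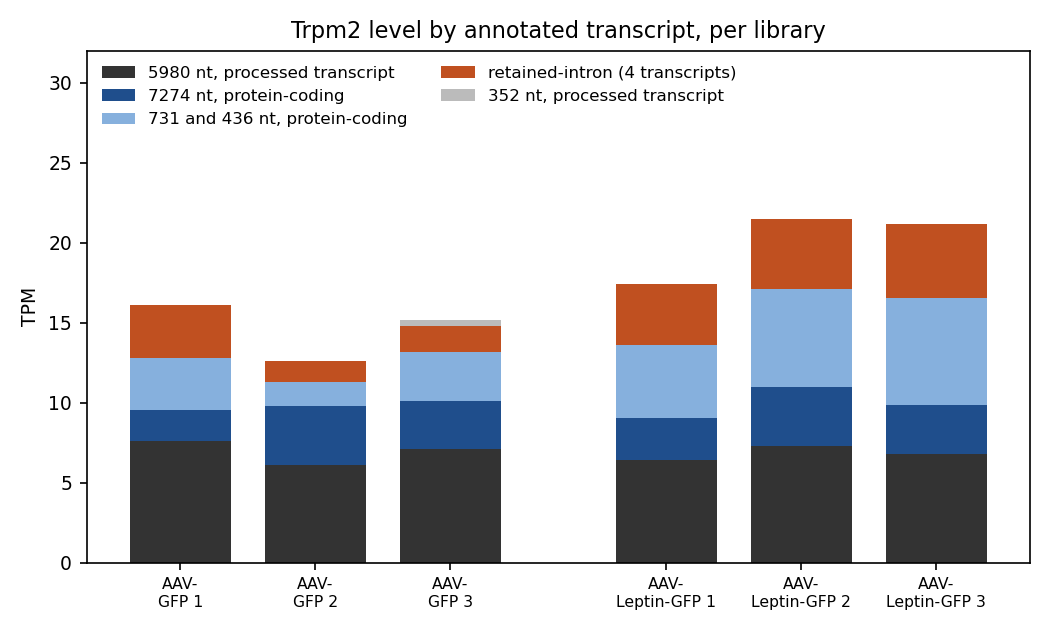
Trpm2 level in TPM in each library, stacked by annotated transcript length and class. The 5980 and 7274 nt forms together reach about the same height in both groups, with means of 9.82 and 9.98 TPM, and the added height with leptin lies in the 731 and 436 nt and the retained-intron forms.

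Trpv2, a heat-sensitive relative of Trpv1 found in larger neurons (ENSMUSG00000018507, chromosome 11, 62574486 to 62600515), showed 67.9, 60.2 and 63.4 TPM with AAV-GFP and 61.3, 61.6 and 55.1 TPM with leptin. The groups overlapped, with a log2 fold change of -0.10 (SE 0.07, 95% interval -0.26 to 0.06, limma adjusted p = 0.454). Its 2 main transcripts set the libraries numbered 1 apart from the others in both groups. The 2650 nt protein-coding form took 33.8% and 34.4% of Trpv2 in replicate 1 of AAV-GFP and AAV-Leptin-GFP, and 45 to 46.4% in the other 4 libraries. The 2909 nt protein-coding form was accordingly highest in the 2 libraries numbered 1, at 30.4 and 27 TPM against 16.9 to 19.2 TPM elsewhere. A rare 3671 nt processed transcript of Trpv2 was higher in every leptin library. It stood at 0.271, 0.0363 and 0 TPM with AAV-GFP and at 0.54, 1.09 and 1.06 TPM with leptin. No share over all single transcripts is given here, so this separation cannot be weighed.

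Trpm7, a ubiquitous magnesium-permeable channel fused to a kinase (ENSMUSG00000027365, chromosome 2, 126791565 to 126876230), stood at 19.4, 18.8 and 18.7 TPM with AAV-GFP and at 18.9, 21.1 and 17.8 TPM with leptin. The control libraries lay within 1.04-fold of each other, the tightest of the 9 genes. The log2 fold change was 0.02 (SE 0.08, 95% interval -0.16 to 0.20, adjusted p = 0.932 by limma). Trpc1, a canonical TRP subunit that forms channels with other family members (ENSMUSG00000032839, chromosome 9, 95705082 to 95750375), stood at 26.3, 26.8 and 27.9 TPM with AAV-GFP and at 26, 29.5 and 30.1 TPM with leptin. Its log2 fold change was 0.08 (SE 0.07, 95% interval -0.09 to 0.25, limma adjusted p = 0.606). Both intervals exclude Trpm2's estimate of 0.43, but both overlap its 95% interval of 0.15 to 0.70. A p above the threshold does not show that Trpm7 and Trpc1 stayed the same.

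Trpm3 (ENSMUSG00000052387, chromosome 19, 22139046 to 22995410) had 24 listed transcripts, the most of the 9 genes, of which 19 were above 0 in some library. Its sum was 15.9, 15.7 and 17.7 TPM with AAV-GFP and 17.6, 17.9 and 16 TPM with leptin, a log2 fold change of 0.06 (SE 0.08, 95% interval -0.13 to 0.25, limma adjusted p = 0.727). The signs of Trpm3 and Trpm7 turned negative with protein-coding transcripts only, without retained-intron transcripts, under length weighting and under quantile normalization. The leading 12305 nt protein-coding transcript of Trpm3 gave 8.02, 8.98 and 8.35 TPM with AAV-GFP and 7.62, 7.98 and 7.24 TPM with leptin, all leptin libraries being lower. A 3648 nt retained-intron transcript gave 0.629, 0.522 and 0.299 TPM with AAV-GFP and 1.57, 1.38 and 1.11 TPM with leptin, all leptin libraries being higher. Neither separation can be weighed, since no share over all single transcripts is given. Mir204, the microRNA gene within Trpm3, was listed at 0 in every library, and Gm27151 on the opposite strand stood at 1.65 to 4.55 TPM.

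Trpv4, an osmotically and mechanically gated channel (ENSMUSG00000014158, chromosome 5, 114622152 to 114658421), was the least abundant of the 9 genes. It was listed at 0.492, 0.634 and 0.976 TPM with AAV-GFP and at 0.866, 0.478 and 0.493 TPM with leptin. The groups overlapped, and the gene was not in the main test because its mean was below 1 TPM. The difference of mean log2(TPM + 1) values was -0.08 and changed sign to 0.04 without AAV-GFP replicate 3.

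Across the 9 genes the share of TPM on the leading transcript was compared between the groups, since retained-intron transcripts were more abundant with leptin overall. The share was lower in every leptin library in 3 genes, and in 0 genes was it higher in every one. For Trpm2 it was 47.1, 48.6 and 46.8% with AAV-GFP and 37.1, 34 and 32% with leptin. For Trpm3 it was 50.3, 57.3 and 47.2% against 43.2, 44.5 and 45.2%, and for Trpv1 99.7, 97.9 and 99% against 94.2, 93.6 and 97.4%. No retained-intron transcript is listed for Trpv1. In each of these 3 genes p was 0.1 by a two-sided exact permutation test, the lowest that 3 against 3 libraries allow, and 0.3 after adjustment over the 9 genes, so the design cannot call them. Over 12296 tested genes with several transcripts above 0, 19.2% had a wholly lower and 2.55% a wholly higher share (21.8% in all) with leptin, so the direction is that of the whole table. Summed retained-intron TPM lay wholly higher with leptin in Trpm2 and Trpc1 and overlapped in Trpm3 and Trpm7, where 43.7% of 7345 tested genes with such transcripts lay wholly higher and 0.83% wholly lower. In Trpc1 it was 0.161, 0.0351 and 0.0977 TPM with AAV-GFP and 0.489, 0.565 and 0.52 TPM with leptin, or a mean of 0.365% and 1.84% of the gene.

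As a share of the summed TPM of the 9 genes, which removes library scaling, Trpm2 held 6.77, 5.92 and 7.14% with AAV-GFP and 8.16, 9.71 and 10.9% with leptin. Trpa1 went from 10.7 ± 0.689% to 8.79 ± 0.371% and Trpm8 from 5.11 ± 0.692% to 3.94 ± 0.304% (SD, n = 3), and in none of these 3 genes did the groups overlap. Trpm7 held 8.59 ± 0.395% and 9.18 ± 0.335%, also without overlap, though its TPM overlapped at a log2 fold change of 0.02. Shares of 1 total depend on each other, so a share can move because other genes in the total do. No background over all genes is given for this measure, so the number of genes without overlap cannot be weighed. Trpv2 held 28.9 ± 0.846% and 28.3 ± 0.458%, and Trpv1 20.1 ± 3.25% and 18 ± 2.48%, both overlapping.

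The rest of the TRP family and the proteins that act on these channels were examined from fixed lists. Of the 19 other family genes, 8 reached a mean of 1 TPM, none passed the test over all genes, and their median log2 fold change was 0.03 (range -0.14 to 0.23). Mcoln1, the lysosomal TRP channel mucolipin 1, stood at 68.5, 60.5 and 57.6 TPM with AAV-GFP and at 73.7, 71.3 and 72.7 TPM with leptin. All leptin libraries were higher (log2 fold change 0.22, limma adjusted p = 0.142, and 0.0497 without AAV-GFP replicate 1). With protein-coding transcripts only its fold change was 0.02. The calcium-activated channel Trpm4 (0.23, adjusted p = 0.272) turned to -0.18 with protein-coding transcripts only, and the diacylglycerol-gated Trpc6 was at -0.14. Trpv5 and Trpm5 were listed at 0 in every library.

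Among 43 regulators and partners of these channels, 39 were tested, none passed, 31 lay below 0 and the median was -0.07. The smallest p belonged to P2ry2, an ATP receptor that couples to phospholipase C, at 0.19 (limma adjusted p = 0.157), and to Gnaq, the G protein subunit downstream of it, at -0.16 (adjusted p = 0.158). Of the 10 tested genes of the cold-sensing neuron list 1 was called higher, and their median was 0.01.

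**Figure D4:**
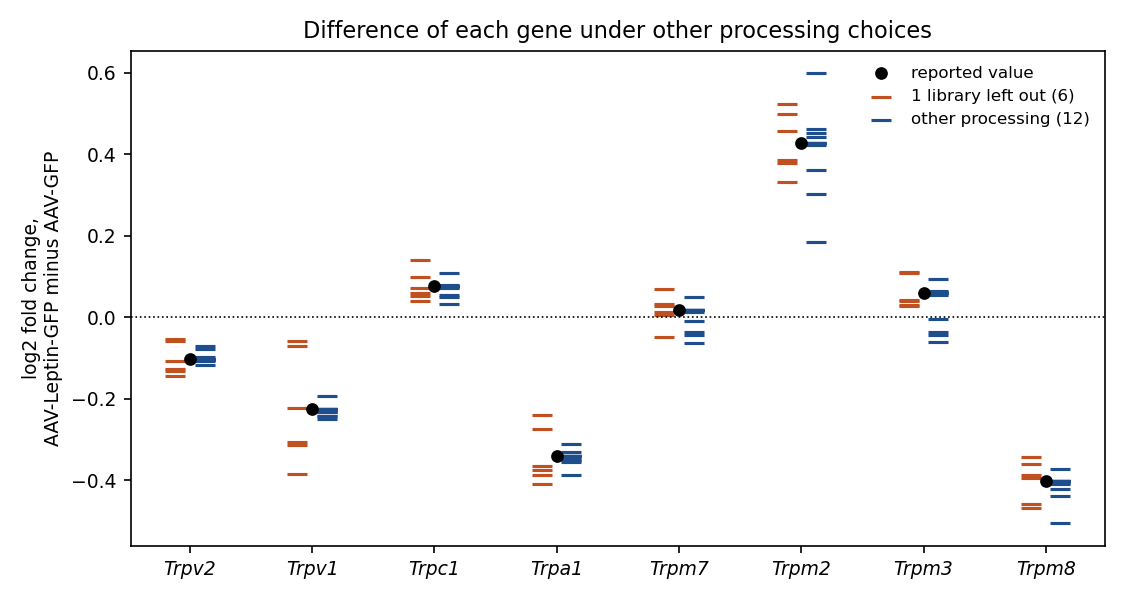
Log2 fold change of the 8 tested genes as reported (black), with 1 library left out (orange) and under the other processing alternatives (blue). Trpm8, Trpa1, Trpv1 and Trpv2 stay below 0 and Trpm2 and Trpc1 above 0 throughout, Trpm2 spans 0.18 to 0.60, and Trpm3 and Trpm7 lie on both sides of 0.

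Markers of other cells were present in the neuron preparation. Satellite glia markers summed to 1886 to 2267 TPM with AAV-GFP and 1762 to 1907 TPM with leptin, and these ranges overlapped. Of the 7 satellite glia markers 5 lay below 0 and 2 above, none called. The smallest p belonged to Fabp7, a fatty acid binding protein gene, at -0.53 (limma adjusted p = 0.106), which was called under length weighting (limma adjusted p = 0.0477). Its means of 871 and 600 TPM made most of the gap in the sum, while Glul, the glutamine synthetase gene, was at 0.14 and Cdh19 at 0.20, 2 genes named after their values were seen. Myelinating Schwann cell markers summed to 951 to 983 and 827 to 908 TPM, endothelial markers to 75.1 to 76.1 and 60.8 to 70.2 TPM, fibroblast markers to 60.9 to 75.4 and 59.4 to 87.6 TPM, and skeletal muscle genes to at most 5.49 TPM. Schwann cell and endothelial sums were wholly lower with leptin, and their part in the values of the TRP genes was not tested.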

How the data were processed

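RNA of 6 libraries, 3 per group, was sequenced after a stranded mRNA kit, per the labels' protocols. The submitters' processing notes name Salmon 1.6.0 and Trim Galore 0.6.6 beside DESeq2 1.34.0 and FastQC 0.11.9 without saying what each did, and the builds GRCm38 and mm10. The authors deposited TPM per transcript, each library summing to 1000000, so depth is unknown and no counting interval is given. Of 140789 transcript identifiers 97.4% occur in GENCODE M21 (GRCm38), 37 with the same version, and that release gave coordinates, classes and lengths.

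Transcript TPM were summed by gene. Genes averaging 1 TPM or more (15108) were fitted on log2(TPM + 1), which understates changes of low genes. The fit used limma 3.58.1 in R 4.3.3 (mean-variance trend, no covariates, two-sided), and genes were called at an adjusted p under 0.05. The procedure was tested on simulated data whose changes were larger than those of the TRP genes, so changes of their size were not covered. Reads that fit several transcripts are split by estimation in Salmon, so single transcript values are less certain than gene sums. Single values used exact permutation tests (scipy 1.17.1). Genes and lists were chosen with earlier results of these data known. Beyond the 9 genes, those named were the called members of a list (up to 4), or else the 2 with the smallest p (3 for the TRP family), and the 2 nearest profiles of Trpv1, Trpa1 and Trpm8. Some genes that this rule picks are not reported here.

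Alternatives were the pseudocount, the filter, scaling, the mean-variance trend, the transcripts summed, the replicate block and leaving out each library.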

Additional observations from a re-analysis of the deposited data

How the results depend on the processing

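None of the 8 tested TRP genes was called with the deposited TPM or in 17 of 18 alternatives; length-weighted TPM, added after seeing the data, called 1, Trpm8. Trpv1, Trpv2, Trpa1, Trpm8, Trpm2 and Trpc1 kept their sign in all 18. Trpm3 reversed to -0.0047 under quantile normalization, -0.04 with protein-coding transcripts only, -0.06 length-weighted and -0.04 without retained-intron transcripts, and Trpm7 to -0.04, -0.04, -0.01 and -0.06 in that order and to -0.05 without AAV-Leptin-GFP replicate 2. Among other named genes, Trpm4 reversed to -0.18 with protein-coding transcripts only, the endothelial marker Cdh5 to 0.02 without AAV-Leptin-GFP replicate 2, and Sstr2 to 0.05 without AAV-GFP replicate 1 and 0.02 when AAV-Leptin-GFP replicate 3 was left out. With 1 library left out, Trpm7 ranged from -0.05 to 0.07, Cdh5 from -0.27 to 0.02 and Sstr2 from -0.26 to 0.05. Calca was called under median-of-ratios scaling and length weighting, and Fabp7 under length weighting. The causes were not tested.

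Over all genes, 233 were called higher and 10 lower. The counts were 4 and 0 with no filter, 150 and 2 with a filter of 0.1 TPM, 53 and 4 with protein-coding transcripts only, 35 and 0 with no mean-variance trend, 642 and 49 length-weighted, and 72 and 4 without retained-intron transcripts. Lower calls numbered 26 under median-of-ratios scaling and 3 without mitochondrially encoded genes. Leaving out 1 library gave 3 to 409 higher and 0 to 11 lower calls, the highest of both without AAV-GFP replicate 1. The background of 1.61% called is thus no fixed quantity.

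The number of genes with a leading-transcript share that did not overlap was 3, 1 with protein-coding transcripts only, and 3 to 5 with 1 library left out (5 without AAV-Leptin-GFP replicate 1). For the share in the summed TPM of the 9 genes the number was 4 to 6 with 1 library left out, against 4 with all libraries. Groups with fewer libraries separate more easily, so these counts can rise for that reason alone. No share over all genes is given for these settings, so the larger counts are no result about the TRP genes.

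Replicate numbers are shared between the groups. Deviations of same-numbered libraries correlated across genes at 0.0341, -0.0699 and -0.0241 for numbers 1, 2 and 3. Correlations over all genes cannot show whether the number has a shared effect on single genes, so pairing of the samples is not settled. With the replicate number as a block (the replicate block fit) the counts were 74 higher and 0 lower, and none of the TRP genes was called. In that fit 4 TRP genes had an unadjusted limma p under 0.05, against 3 without it. The added gene was Trpv1, with a limma p of 0.0275 (adjusted p = 0.201) against 0.267 without the block.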
